A study of Homo sapiens with 6 samples.

Results

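The forkhead box (FOX) genes encode transcription factors that bind DNA through a shared winged-helix domain and are sorted by sequence into lettered subfamilies. Members were taken as the lines of the count table whose symbol is FOX, a letter from A to S, a number and at most a final A or B, which gave 46 of 53712 genes. Some forkhead proteins open closed chromatin ahead of other factors (FOXA), some carry insulin and stress signals (FOXO), and FOXH1 partners SMAD proteins at NODAL-responsive enhancers while FOXM1 drives mitotic genes. Many others are switched on as cells leave pluripotency and mark a germ layer or an organ, and in pluripotent cells such genes are typically held at low levels by Polycomb complexes.

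Poly(A) RNA was sequenced from H9, 1 established human embryonic stem cell line, grown in PXGL medium, which is made to keep cells in a naive state. The comparison asks what follows when LINE-1 RNA, transcribed from a retrotransposon that is still active in the human genome, is targeted with an antisense oligonucleotide. A group of 3 libraries came from cells transfected with 25 nM of an oligonucleotide antisense to LINE-1, called ASO-L1, and the control group of 3 libraries from cells given 25 nM of the matching sense oligonucleotide, called SO-L1. Both groups also received 0.7 uM trans-ISRIB (a blocker of the integrated stress response), 5 uM emricasan (a caspase inhibitor) and 10 uM Y-27632 (a ROCK inhibitor), which were taken away after 24 hours. RNA was taken at 48 hours from all cells, transfected or not. The labels do not state that the 3 libraries of a group were grown separately, so the p-values below describe the spread between these libraries, which may be technical.

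The libraries held between 23330875 and 31164287 counts each, with a common biological variation of 10.2% (coefficient of variation) between replicates. Shared pluripotency genes were abundant in both groups (POU5F1 had 1265 CPM in SO-L1 and 1136 CPM in ASO-L1, where CPM are TMM-normalised counts scaled to a common library size). Of the listed naive markers, NLRP7 was at 101 CPM in SO-L1, DNMT3L at 79.9, ALPPL2 at 53.7, KLF4 at 44.9 and TFCP2L1 at 36.6. DPPA5 was at 34.2 CPM there, SUSD2 at 30.0, KLF5 at 23.9 and DPPA3 at 17.4. In contrast, KLF17 was at 0.743 CPM, and ARGFX and KHDC1L had 16 and 9 reads in all 6 libraries together. The labelled naive state is thus borne out by most of these markers but not by KLF17, ARGFX and KHDC1L. ASO-L1 replicate 2 stood apart: it was the highest of the 6 libraries in 90.8% of all genes called higher. Where leaving it out moved the fold change of a member or a named list gene by over 1.5 times, that value is given as well.

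All 46 members had at least 1 read. A filter on low counts left 32 members to test, from 16 of the 19 subfamily letters, and the other 14 held between 3 and 55 reads over the 6 libraries. A gene was called where the Benjamini-Hochberg adjusted p of the edgeR quasi-likelihood test, adjusted over all 16873 tested genes, was under 0.05, and every adjusted p below is of this kind unless another source is named. After ASO-L1, 11 members were called higher (34.4% of those tested, where 18% of all tested genes were) and 5 were called lower (15.6%, where 15.7% of all were). The remaining 16 were not called. With the replicate number as a block the counts were 12 and 7, against 23.3% and 22.5% of all genes. No test was made of whether the family differs from other genes, and the count of increases is not support for that. FOXC2, FOXD2 and FOXQ1 had no SO-L1 library above the filter's threshold of 0.364 CPM, and FOXC1 and FOXL2 had 2 of 3, so their place among the tested members came in whole or in part from the group where they were high.

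The calls were of 2 kinds. In one, 6 developmental regulators with control means under 1 CPM (FOXC2, FOXC1, FOXD2, FOXQ1 and FOXL2 among them) were called higher by 2-fold or more, as were 3.91% of all tested genes. In the other, 5 members called higher and 4 called lower moved by less than 2-fold, and FOXI2 alone was called lower by over 2-fold, as were 1.08% of all tested genes. By average level, 3 of 6 members under 0 on the log2 CPM scale were called higher (10.2% of all tested genes at that level), 5 of 9 from 0 to 3 (13.2%) and 3 of 17 at 3 or more (21.9%). Those 3 under 0 were FOXC2, FOXD2 and FOXQ1, which were tested only through ASO-L1. A rise also lifts the average level that sets the band, so the 3 of 6 is not support for more increases at low level. The median log2 fold change (ASO-L1 over SO-L1) was 0.17 over tested members and -0.01 over all tested genes. Groups did not overlap in 14 members with ASO-L1 above (25.8% of all tested genes) and in 9 with ASO-L1 below (25.1%), and these include every called member. ASO-L1 replicate 2 was the highest of the 6 libraries in 11 of the 11 members called higher and the lowest in 4 of the 5 called lower. Summed over the 46 members, the level was 989, 1039 and 1032 CPM in SO-L1 replicates 1 to 3 and 1026, 1048 and 1022 CPM in ASO-L1, and these ranges overlap.

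**Figure D1:**
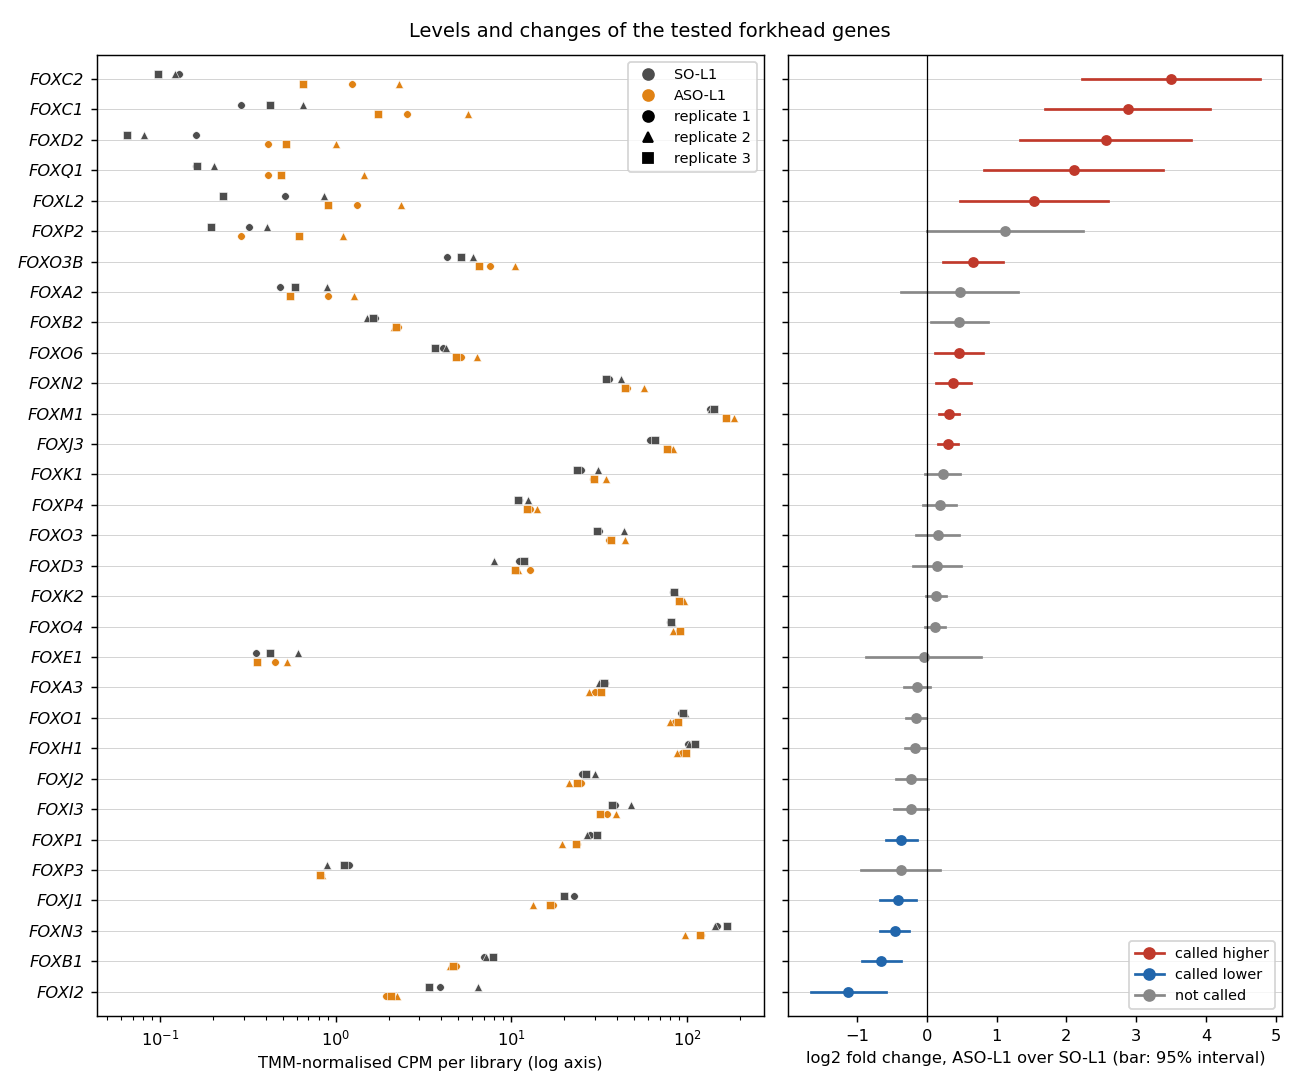
Left, CPM of 31 tested members on a log axis, with 1 point per library (grey SO-L1, orange ASO-L1, n = 3 each). Right, the log2 fold change with its 95% interval, coloured by call; FOXC2, FOXC1, FOXD2, FOXQ1 and FOXL2 combine low SO-L1 levels with rises of 1.54 to 3.50, and most other members lie near 0.

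Among the members, 6 lie in a pair of forkhead clusters, with FOXQ1, FOXF2 and FOXC1 side by side on chromosome 6 and FOXF1, FOXC2 and FOXL1 on chromosome 16. Of these, 3 were called higher, as were 18% of all tested genes, and 3 had too few reads to test. The 3 called members (FOXC1, FOXC2 and FOXQ1) passed the filter in whole or in part through ASO-L1. Their count is therefore not support for a rise of the clusters. FOXC1 and FOXC2 are regulators of paraxial mesoderm, vessels and the eye, FOXF1 and FOXF2 of visceral mesenchyme, FOXQ1 of epithelia and FOXL1 of gut mesenchyme. FOXC1 measured 0.288, 0.651 and 0.424 CPM in SO-L1 replicates 1 to 3 and 2.56, 5.70 and 1.75 CPM in ASO-L1. Every ASO-L1 library was thus above every SO-L1 library, and the rise of 2.88 ± 0.52 on the log2 scale (SE, 95% interval 1.70 to 4.06) had an adjusted p of 0.00487. In bulk RNA such as this, more cells of a type and more RNA per cell cannot be told apart. FOXC2 measured 0.128, 0.122 and 0.0979 CPM in SO-L1 and 1.24, 2.28 and 0.649 CPM in ASO-L1. Its groups were apart as well, with a log2 fold change of 3.50 ± 0.57 (2.23 to 4.77, adjusted p = 0.00261), the largest among tested members. FOXQ1 measured 0.160, 0.203 and 0.163 CPM in SO-L1 and 0.413, 1.45 and 0.487 CPM in ASO-L1. The groups did not overlap, but ASO-L1 replicate 2 was far above the other 2 of its group, and the rise of 2.10 ± 0.58 (0.83 to 3.38, adjusted p = 0.0182) was 1.36 without it (adjusted p = 0.0552).

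The 3 untested cluster members differed in how their reads were spread. FOXF2 had 0, 1 and 1 reads in SO-L1 and 9, 32 and 9 in ASO-L1, a ratio of 27.8 at equal depth (95% counting interval 7.30 to 236). Without ASO-L1 library 2 it was 14.1 (3.39 to 126). For FOXF1 the reads were 2, 2 and 1 in SO-L1 and 4, 39 and 7 in ASO-L1, so 1 library held most of them. FOXL1 had 5, 4 and 4 reads against 0, 8 and 9, and its groups overlapped. Such counting intervals cover counting error only. FOXC1 and FOXC2 kept their call without any single library, at 2.26 and 2.95 on the log2 scale without ASO-L1 library 2. The FOXQ1 call was also lost without SO-L1 library 1 (adjusted p = 0.0790) or 3 (0.0673).

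The promoters of the chromosome 6 cluster are shown because FOXC1 and FOXQ1 rose, the few FOXF2 reads were nearly all in ASO-L1, and the 3 starts lie close to one another, and those of FOXB1 and FOXI2, both called lower, are set beside them. Each is the 250 bases before the RefSeq start on GRCh38.p14, 5′ to 3′ on the plus strand, which is the strand of all 5 genes, with the CCAAT box in capitals where it occurs, here as its reverse complement. The windows are chr6:1609665-1609914 for FOXC1, chr6:1389326-1389575 for FOXF2, chr6:1311848-1312097 for FOXQ1, chr15:60004061-60004310 for FOXB1 and chr10:127736935-127737184 for FOXI2.
FOXC1: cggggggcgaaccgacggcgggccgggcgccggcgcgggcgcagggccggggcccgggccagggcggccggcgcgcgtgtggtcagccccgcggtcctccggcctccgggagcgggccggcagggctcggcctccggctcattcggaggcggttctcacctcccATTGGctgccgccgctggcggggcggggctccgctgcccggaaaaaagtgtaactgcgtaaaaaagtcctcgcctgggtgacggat
FOXF2: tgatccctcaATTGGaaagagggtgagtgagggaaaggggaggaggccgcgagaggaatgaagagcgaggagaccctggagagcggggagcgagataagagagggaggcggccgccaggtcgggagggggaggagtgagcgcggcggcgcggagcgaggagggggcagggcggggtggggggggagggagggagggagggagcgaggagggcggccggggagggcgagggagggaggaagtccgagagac
FOXQ1: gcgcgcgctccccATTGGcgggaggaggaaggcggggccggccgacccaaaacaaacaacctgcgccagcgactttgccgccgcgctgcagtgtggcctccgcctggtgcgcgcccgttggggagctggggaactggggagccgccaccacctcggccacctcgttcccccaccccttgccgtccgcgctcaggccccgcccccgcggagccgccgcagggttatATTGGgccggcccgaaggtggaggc
FOXB1: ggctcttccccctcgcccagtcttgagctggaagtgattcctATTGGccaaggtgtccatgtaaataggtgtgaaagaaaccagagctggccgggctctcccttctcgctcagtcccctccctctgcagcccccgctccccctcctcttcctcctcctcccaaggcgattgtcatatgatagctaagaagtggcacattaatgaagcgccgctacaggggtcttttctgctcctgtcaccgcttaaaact
FOXI2: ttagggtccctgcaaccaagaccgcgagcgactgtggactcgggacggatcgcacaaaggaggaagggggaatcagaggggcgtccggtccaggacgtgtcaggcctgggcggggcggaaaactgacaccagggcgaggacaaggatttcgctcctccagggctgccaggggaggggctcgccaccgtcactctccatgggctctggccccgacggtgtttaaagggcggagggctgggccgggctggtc
The FOXC1 window holds 37 CpG and 76.8% G and C, that of FOXQ1 29 CpG and 74.0%, that of FOXF2 20 CpG and 70.8%, that of FOXI2 19 CpG and 66.8%, and that of FOXB1 8 CpG and 55.6%.

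RefSeq promoters were matched for 34 members, and 25 of these were tested. Their windows were rich in CpG, with a median of 26 and a median G and C content of 73.6%, against 21 CpG and 64.8% over the promoters of 10930 tested genes. Members called higher (25 CpG at the median, n = 7), called lower (25, n = 4) and not called (26.5, n = 14) were alike in this count. A set of 5 motifs was searched on both strands. The CCAAT box (CCAAT) was in the windows of FOXB1, FOXC1, FOXF2, FOXK2, FOXN1, FOXO1 and FOXQ1, and in 34.5% of tested-gene promoters. The FOXQ1 window held it at 237 and 25 bases before the start, FOXF2 at 240, FOXB1 at 208 and FOXC1 at 86. A forkhead core motif (TGTTTAC), found in 1.88% of tested-gene promoters, was in no member's window, nor was an EGR site (GCGTGGGCG, 1.14%). The cyclic AMP response element (TGACGTCA, 2.74%) was in that of FOXD3, and a TATA box (TATAAA, 5.54%) in those of FOXA3, FOXP3 and FOXR2. These matches are descriptions of letters and not of binding.

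The neighbouring coding genes were looked at next, and those named were picked after their values were seen. On chromosome 6 the called neighbours went in both directions. EXOC2 (-0.47, adjusted p = 0.0109) and DUSP22 (-0.34, 0.0104) were called lower, and WRNIP1 was called higher (0.44, 0.00880). GMDS, which follows FOXC1, was at 0.11 ± 0.18 (adjusted p = 0.649). The DUSP22 call was not followed under the alternatives. On chromosome 16 the called neighbours were higher, namely EMC8 (0.30, adjusted p = 0.0206), FBXO31 (0.32, 0.0414), MAP1LC3B (0.81, 0.0145) and IRF8. Not called there were C16orf74 (-0.12), COX4I1 (0.04), ZCCHC14 (0.12) and MTHFSD, which lies between FOXF1 and FOXC2 (0.02 ± 0.16, adjusted p = 0.932). Each cluster also lies near an interferon regulatory factor gene, and both of these were called higher: IRF4 by 2.92 ± 0.51 (adjusted p = 0.0123) and IRF8 by 1.56 ± 0.30 (0.00440). Without SO-L1 library 3 the calls of EMC8 (adjusted p = 0.101), EXOC2 (0.0537) and MAP1LC3B (0.0510) were lost, and that of FBXO31 was lost without each single library but ASO-L1 replicate 3 (0.0597 to 0.147). The IRF4 call was lost without replicate 3 of both groups (adjusted p = 0.0966) and that of IRF8 without replicate 1 of both (0.0530).

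**Figure D2:**
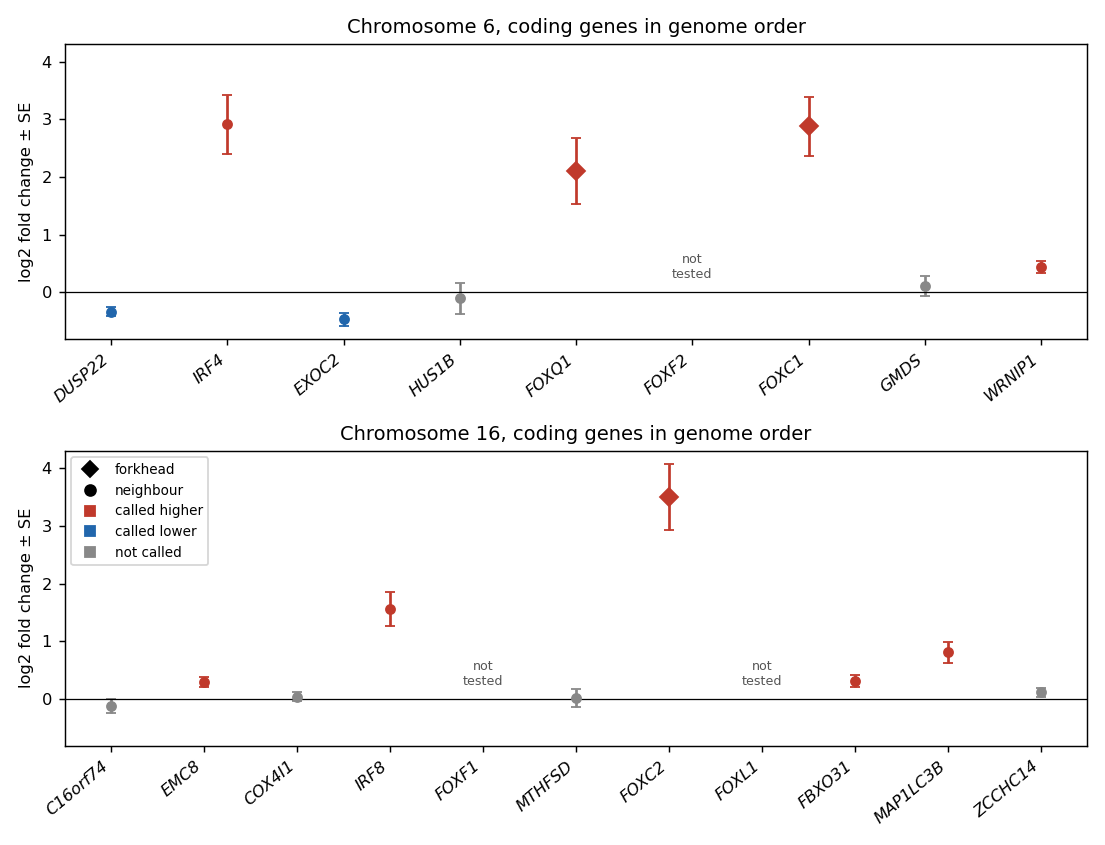
Log2 fold change (ASO-L1 over SO-L1, bars: SE) of coding genes in genome order around the forkhead genes of chromosomes 6 and 16, coloured by call. FOXQ1, FOXC1 and FOXC2 (diamonds) stand above the genes next to them, MTHFSD and GMDS lie near 0, and IRF4 and IRF8 are the other points above 1.

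The FOXD and FOXB groups, with roles in neural crest, kidney and the nervous system, included both a large rise and a modest fall. FOXD2, a regulator of kidney and facial mesenchyme, measured 0.160, 0.0814 and 0.0652 CPM in SO-L1 and 0.413, 1.01 and 0.519 CPM in ASO-L1. Its groups did not overlap (2.56 ± 0.55, adjusted p = 0.00654), and without ASO-L1 library 2 the value was 2.13, with the call kept. Its neighbour FOXD2-AS1, a long noncoding RNA that starts 3403 bases away on the opposite strand, measured 0.288, 0.366 and 0.228 CPM in SO-L1 and 0.908, 1.84 and 0.974 CPM in ASO-L1. It rose as well, by 2.06 ± 0.40 (adjusted p = 0.00432), and since the use of strand in counting is not given in the sources used here, reads of overlapping genes on opposite strands cannot be told apart.

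FOXB1, a factor of the hypothalamus and spinal cord, was called lower. Its levels were 6.98, 7.16 and 7.90 CPM in SO-L1 and 4.87, 4.47 and 4.67 CPM in ASO-L1, with the 2 groups apart and tight. The fall was 0.65 on the log2 scale, with an SE of 0.13 and an adjusted p of 0.00468. Its close relative FOXB2 had the opposite sign, at 1.60 ± 0.0837 CPM in SO-L1 and 2.21 ± 0.0605 CPM in ASO-L1 (SD, n = 3), and was not called (0.46 ± 0.18, adjusted p = 0.0766). FOXD3, which keeps pluripotent and neural crest cells undifferentiated, measured 11.1, 7.93 and 11.8 CPM in SO-L1 and 12.8, 10.9 and 10.5 CPM in ASO-L1. Its groups overlapped (0.14 ± 0.15, interval -0.20 to 0.48, adjusted p = 0.508). FOXD1, a kidney stroma factor, had no read in SO-L1 and 6 in ASO-L1, at least 2.22-fold higher against a floor of 3 counts over the group. Without ASO-L1 library 2 it had 3 reads, which is no more than the floor. FOXD4 had 7 reads in SO-L1 and 30 in ASO-L1, and is uncertain because near-identical copies (FOXD4L1 and others) can take its reads. Without replicate 1 or 3 of both groups the FOXB1 call was lost (adjusted p = 0.0602 and 0.0644).

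Factors of surface ectoderm, sense organs and gonad went in both directions. FOXI2, of the FOXI group that sets up placodes and ionocytes, measured 3.94, 6.43 and 3.39 CPM in SO-L1 and 1.94, 2.24 and 2.08 CPM in ASO-L1. The highest ASO-L1 library was below the lowest SO-L1 library, and the level fell by 1.13 on the log2 scale, or 2.18-fold (SE 0.24, adjusted p = 0.00732). The better expressed FOXI3 measured 39.1, 48.0 and 37.6 CPM in SO-L1 and 34.9, 39.5 and 32.0 CPM in ASO-L1. Its groups overlapped and it was not called (-0.23 ± 0.11, adjusted p = 0.135), but it was called lower with the replicate block (adjusted p = 0.0156). Replicate 2 was its highest library in both groups. FOXI1 had 8 reads in SO-L1 and 2 in ASO-L1. FOXL2, the ovarian granulosa cell factor, measured 0.512, 0.855 and 0.228 CPM in SO-L1 and 1.32, 2.37 and 0.909 CPM in ASO-L1. The groups were apart by little, 0.855 against 0.909 CPM, and the rise was 1.54 ± 0.48 (0.47 to 2.60, adjusted p = 0.0324). It was lost without SO-L1 library 1 (adjusted p = 0.107) or 3 (0.106), or ASO-L1 library 1 (0.0506) or 2 (0.0809). The transcript C3orf72, named FOXL2NB in RefSeq, starts 80 bases from FOXL2 on the opposite strand. It measured 0.256, 0.529 and 0.196 CPM in SO-L1 and 0.495, 1.01 and 0.552 CPM in ASO-L1, and was not called (1.08 ± 0.46, adjusted p = 0.0901), except with the replicate block (0.0289) and without SO-L1 library 2 (0.0411). FOXE1, a thyroid factor, was at 0.462 and 0.446 CPM (-0.05, adjusted p = 0.930), and the lens factor FOXE3 had 4 and 10 reads.

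FOXH1, the SMAD partner of NODAL signalling, was the highest member per length by group mean and was not called. Its levels were 101, 102 and 110 CPM in SO-L1 and 93.8, 87.4 and 98.4 CPM in ASO-L1. All ASO-L1 libraries lay below all SO-L1 libraries, at -0.16 ± 0.07 on the log2 scale (-0.32 to -0.01, adjusted p = 0.0939), and the replicate block brought the adjusted p to 0.0355. Counts in this and the following gene lists stand against 18% of all tested genes called higher and 15.7% called lower. Among 18 tested genes of the activin and NODAL pathway, 5 were called higher and 0 lower, with a median log2 fold change of 0.14, where edgeR at an unadjusted p under 0.05 gave 2 lower, limma-voom called 0 lower and DESeq2 called 1. With the block these counts were 6 and 3. The called genes included the type I receptor ACVR1B (29.4 to 48.5 CPM, 0.72 ± 0.11, adjusted p = 0.00196), LHX1 (0.505 to 1.77 CPM, 1.82 ± 0.44, 0.0112), the secreted inhibitor CER1 (14.5 to 70.3 CPM, 2.29 ± 0.42, 0.0132) and the inhibitory SMAD7 (0.30 ± 0.10, 0.0476). NODAL itself was at 119 and 127 CPM (0.09, adjusted p = 0.286) and its feedback inhibitor LEFTY1 at 65.2 and 71.5 CPM (0.13, 0.260), neither of them called. Without single libraries the higher count was 3 (without SO-L1 library 1 or 3) to 9 (without SO-L1 library 2), and the LHX1 call was lost without SO-L1 library 1 (adjusted p = 0.0621) or 3 (0.0529).

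None of the FOXA genes, pioneer factors of endoderm and liver, was called. FOXA3 measured 34.2, 31.5 and 33.6 CPM in SO-L1 and 29.9, 27.6 and 32.2 CPM in ASO-L1, and the groups overlapped by 1 library (-0.15 ± 0.08, interval -0.33 to 0.04, adjusted p = 0.205). FOXA2 was at 0.654 CPM in SO-L1 and 0.911 CPM in ASO-L1 (0.47 ± 0.38, adjusted p = 0.360), and FOXA1 had 7 and 22 reads. Other genes of definitive and primitive endoderm were called higher in 6 of 13 tested cases, with a median of 0.56. By edgeR, limma-voom and DESeq2, 0 were called lower, and 0 were lower by edgeR at an unadjusted p under 0.05. The genes called higher were HHEX (0.419 to 2.57 CPM, 2.62 ± 0.56, adjusted p = 0.00952), the yolk sac protein AFP (1.12 to 2.23 CPM, 0.98 ± 0.24, 0.0114), CER1 given above, SOX17 (0.181 to 0.782 CPM, 2.10 ± 0.54, 0.0142), the receptor CXCR4 (1.76 to 7.33 CPM, 2.06 ± 0.48, 0.0180) and GATA6 (1.57 to 3.91 CPM, 1.29 ± 0.35, 0.0200). The endoderm marker list, which shares SOX17, GATA6, AFP and FOXA2 with these genes, summed to 8.97 to 10.3 CPM in SO-L1 and 10.9 to 17.4 CPM in ASO-L1, with GATA4 at 1.66 and 1.49 CPM. Without SO-L1 library 3 the count called higher was 3, with SOX17 (adjusted p = 0.0579), CXCR4 (0.0650) and GATA6 (0.0765) lost. SOX17 was also lost without SO-L1 library 1 (0.0737) and GATA6 without SO-L1 library 2 (0.0548). Without ASO-L1 library 2, HHEX was at 1.88 and CXCR4 at 1.39 on the log2 scale, with both calls kept.

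FOXM1, which drives transcription of mitotic genes, was called higher by a small and even amount. It measured 135, 137 and 142 CPM in SO-L1 and 166, 185 and 166 CPM in ASO-L1, so that the lowest ASO-L1 library was above the highest SO-L1 library. The log2 fold change was 0.32 ± 0.07 (0.18 to 0.47, adjusted p = 0.00536). Of 43 tested FOXM1 target and G2/M genes, 23 were called higher and 4 lower, with a median of 0.20. The kinesin KIF2C rose from 96.8 to 150 CPM (0.64 ± 0.08, adjusted p = 0.00143), the mitotic kinase PLK1 from 213 to 285 CPM (0.42 ± 0.06, 0.00225), the MuvB partner MYBL2 from 626 to 870 CPM (0.48 ± 0.08, 0.00316) and the MuvB subunit LIN54 from 25.4 to 41.0 CPM (0.69 ± 0.12, 0.00333). The 4 lower genes were CDC25B, CENPE, HMMR and BUB1, from -0.37 to -0.25. Without SO-L1 library 2 the count called higher was 15, and the count called lower was 1 without SO-L1 library 1 or 3 or ASO-L1 library 1, and 2 without ASO-L1 library 2. The FOXM1 call was lost without replicate 1 of both groups (adjusted p = 0.0643).

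The FOXO genes, which insulin signalling keeps out of the nucleus through AKT and which respond to stress and starvation, held 2 calls, both of them increases of under 2-fold. FOXO1 measured 91.8, 96.8 and 94.3 CPM in SO-L1 and 85.8, 80.3 and 88.4 CPM in ASO-L1. Its groups were apart, with ASO-L1 below, without a call (-0.15 ± 0.07, -0.30 to -0.01, adjusted p = 0.0954). FOXO4 measured 80.0, 82.0 and 81.2 CPM in SO-L1 and 90.1, 83.1 and 90.7 CPM in ASO-L1, apart in the other direction and not called either (0.12 ± 0.06, adjusted p = 0.181). FOXO3 measured 31.6, 43.5 and 30.6 CPM in SO-L1 and 36.2, 44.3 and 37.0 CPM in ASO-L1, with overlap (0.15 ± 0.14, -0.16 to 0.46, adjusted p = 0.421). The 2 FOXO members called higher, FOXO6 and FOXO3B, were less abundant per length than FOXO1, FOXO3 and FOXO4. FOXO6, a brain-enriched form, measured 4.06, 4.23 and 3.65 CPM in SO-L1 and 5.20, 6.40 and 4.87 CPM in ASO-L1, without overlap (0.46 ± 0.16, 0.12 to 0.80, adjusted p = 0.0430). FOXO3B measured 4.29, 6.06 and 5.15 CPM in SO-L1 and 7.55, 10.5 and 6.56 CPM in ASO-L1, without overlap (0.66 ± 0.19, 0.23 to 1.09, adjusted p = 0.0249), and is uncertain because it is a near-identical copy of FOXO3. FOXO1B, a copy of FOXO1, had 2 reads in each group. The FOXO6 call held without ASO-L1 library 3 but was lost without each other single library (adjusted p 0.0568 to 0.151), with DESeq2 (0.0562) and without the filter (0.0550). That of FOXO3B was lost without SO-L1 library 1 (0.114) or 3 (0.0784) or ASO-L1 library 2 (0.0536).

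Of 27 tested genes that act on FOXO proteins, 4 were called higher and 3 lower, with a median of 0.01. With the replicate block 7 and 4 were called, where 23.3% and 22.5% of all tested genes were. The acetyltransferase CREBBP rose from 140 to 225 CPM (0.69 ± 0.10, adjusted p = 0.00217), the insulin receptor substrate IRS2 from 27.6 to 59.7 CPM (1.11 ± 0.22, 0.00922) and the kinase PDPK1 from 69.3 to 80.5 CPM (0.22 ± 0.07, 0.0317). The insulin receptor INSR fell from 80.0 to 61.7 CPM (-0.37 ± 0.11, adjusted p = 0.0248). Of 34 tested FOXO target genes, 12 were called higher and 10 lower, with a median of 0.24, and 18 and 12 with the replicate block. The stress gene SESN3 fell from 244 to 123 CPM (-0.98 ± 0.09, adjusted p = 0.000800) and C10orf10, also known as DEPP1, from 13.3 to 6.11 CPM (-1.12 ± 0.18, 0.00246). In the other direction, the thioredoxin inhibitor TXNIP rose from 38.7 to 73.3 CPM (0.92 ± 0.09, adjusted p = 0.000992), KLF2 from 8.07 to 20.1 CPM (1.32 ± 0.20, 0.00271) and the ubiquitin ligase FBXO32 from 1.08 to 2.84 CPM (1.40 ± 0.27, 0.00435). IRS2 and INSR stand on both lists. Target counts without SO-L1 library 3 were 5 higher and 5 lower, and without SO-L1 library 1 the lower count was 5. The upstream counts without SO-L1 library 3 were 2 and 0, with 2 lower by edgeR at an unadjusted p under 0.05 and no other tool run without that library. They were 2 higher without SO-L1 library 1, and 2 and 1 without ASO-L1 library 1. INSR was lost without SO-L1 library 1 (adjusted p = 0.0718) or 3 (0.110), and PDPK1 without SO-L1 library 1 (0.118) or 3 (0.108) or ASO-L1 library 1 (0.0821) or 3 (0.0599).

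The FOXJ genes split by member. FOXJ1, the master regulator of motile cilia, measured 22.7, 20.3 and 20.0 CPM in SO-L1 and 17.2, 13.3 and 16.7 CPM in ASO-L1. The groups were apart and the level fell by 0.41 on the log2 scale (SE 0.11, adjusted p = 0.0192), a call lost without SO-L1 library 1 (0.0905). FOXJ3, a factor of muscle and germ cells, measured 61.7, 66.0 and 65.5 CPM in SO-L1 and 78.4, 82.8 and 77.3 CPM in ASO-L1, higher in every ASO-L1 library (0.30 ± 0.07, adjusted p = 0.00753). FOXJ2 measured 25.3, 30.0 and 26.6 CPM in SO-L1 and 24.8, 21.4 and 23.7 CPM in ASO-L1, lower in every ASO-L1 library but not called (-0.23 ± 0.10, -0.44 to -0.01, adjusted p = 0.0951). Of 26 tested cilia and FOXJ1 target genes, 4 were called higher and 4 lower, with a median of 0.05.

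Upstream regulators of multiciliated cells went in both directions. GMNC, MCIDAS and CCNO were called higher, from low control levels, and MYB was called lower. RFX2 (0.08) and RFX3 (-0.29) were not called. GMNC rose from 0.0378 to 0.762 CPM (4.25 ± 0.71, adjusted p = 0.00251), MCIDAS from 0.291 to 0.921 CPM (1.60 ± 0.43, 0.0169) and CCNO from 0.725 to 2.47 CPM (1.80 ± 0.53, 0.0314). The tubulin-binding TPPP3 rose from 0.340 to 1.02 CPM (1.59 ± 0.31, 0.00464), whereas MYB fell from 8.83 to 4.72 CPM (-0.90 ± 0.18, 0.00535). GMNC had 1, 2 and 0 reads in SO-L1 and 17, 25 and 15 in ASO-L1. It was thus tested only through ASO-L1, and its fold change rests on 3 control reads. MCIDAS and TPPP3 also had SO-L1 means under the filter's threshold of 0.364 CPM. Without SO-L1 library 3 the count called higher was 2, with MCIDAS (adjusted p = 0.0683) and CCNO (0.105) lost, and CCNO was also lost without SO-L1 library 1 (0.0993) or ASO-L1 library 1 (0.0531) or 2 (0.0523). Without SO-L1 library 2, GMNC was at 5.18 and CCNO at 2.46, with both calls kept. The lower count was 1 without SO-L1 library 1 or 3 or ASO-L1 library 1, and 2 without ASO-L1 library 2.

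Among the FOXN genes, FOXN2 and FOXN3 are widely expressed and were called in opposite directions. FOXN2 measured 36.1, 42.2 and 34.4 CPM in SO-L1 and 45.6, 56.5 and 44.2 CPM in ASO-L1 (0.38 ± 0.11, adjusted p = 0.0265). FOXN3, a repressor linked to the cell cycle checkpoint, measured 148, 145 and 170 CPM in SO-L1 and 120, 97.2 and 119 CPM in ASO-L1 (-0.46 ± 0.09, adjusted p = 0.00573). Neither gene's groups overlapped, and the antisense transcript FOXN3-AS1 was at 1.21 and 0.969 CPM (-0.34 ± 0.31, adjusted p = 0.424). The thymus factor FOXN1 had 2 reads in SO-L1 and 1 in ASO-L1, and FOXN4, of retina and spinal cord, had 12 and 13. The FOXN2 call was lost without SO-L1 library 1 (adjusted p = 0.108) or 3 (0.115), and that of FOXN3 without replicate 1 of both groups (0.0558).

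The FOXP repressors and FOXK factors held 1 call. FOXP1, a repressor with a form specific to pluripotent cells, measured 27.9, 26.9 and 30.8 CPM in SO-L1 and 23.7, 19.4 and 23.2 CPM in ASO-L1. The groups were apart and the fall was 0.37 on the log2 scale (SE 0.10, adjusted p = 0.0195), lost without SO-L1 library 1 (0.0610) or 3 (0.0924). FOXP4 measured 11.1, 12.4 and 10.9 CPM in SO-L1 and 12.8, 14.1 and 12.3 CPM in ASO-L1, with overlap (0.19 ± 0.11, -0.05 to 0.42, adjusted p = 0.201). The speech-circuit factor FOXP2 was at 0.308 and 0.667 CPM (1.11 ± 0.51, adjusted p = 0.109), and FOXP3, which defines regulatory T cells, at 1.06 and 0.823 CPM (-0.38 ± 0.26, 0.276).

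FOXK1 measured 25.1, 31.2 and 23.8 CPM in SO-L1 and 29.3, 34.6 and 29.4 CPM in ASO-L1. Its groups overlapped through SO-L1 replicate 2, and it was called higher with the replicate block (adjusted p = 0.0209) though not without it (0.22 ± 0.12, 0.157). FOXK2, like FOXK1 a repressor of autophagy genes, measured 82.6, 85.2 and 83.7 CPM in SO-L1 and 89.9, 95.7 and 89.6 CPM in ASO-L1, apart but not called (0.13 ± 0.06, -0.01 to 0.27, adjusted p = 0.133). FOXR1 had 9 reads in SO-L1 and 4 in ASO-L1, FOXR2 had 3 and 2, and FOXS1 had 3 and 4, a ratio of 1.48 at equal depth with a counting interval of 0.251 to 10.1.

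Levels were set against each other per length, as CPM per kb of the gene's union of exons in GENCODE 29. In SO-L1 the order began with FOXH1 at 41.7 CPM per kb, FOXM1 at 28.1 and FOXO4 at 23.5, and the same 3 led in ASO-L1 at 37.2, 35.1 and 25.5. Next came FOXO1 at 15.1, FOXA3 at 15.1, FOXI3 at 14.8 and FOXN3 at 13.96, whose SO-L1 libraries overlapped one another. Below them stood FOXJ3 at 9.34, FOXK2 at 8.39, FOXJ1 at 7.95 and FOXN2 at 6.85. FOXC1 was at rank 27 of the 46 in SO-L1 and 22 in ASO-L1, and FOXC2 at 34 and 26. After ASO-L1 both of these regulators were thus still far below FOXH1 and FOXM1. The ASO-L1 libraries of FOXH1 (34.9 to 39.3 CPM per kb) and FOXM1 (33.8 to 37.7 CPM per kb) overlapped. The gene models are not those of the authors' counting, so the order rests on these lengths.

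**Figure D3:**
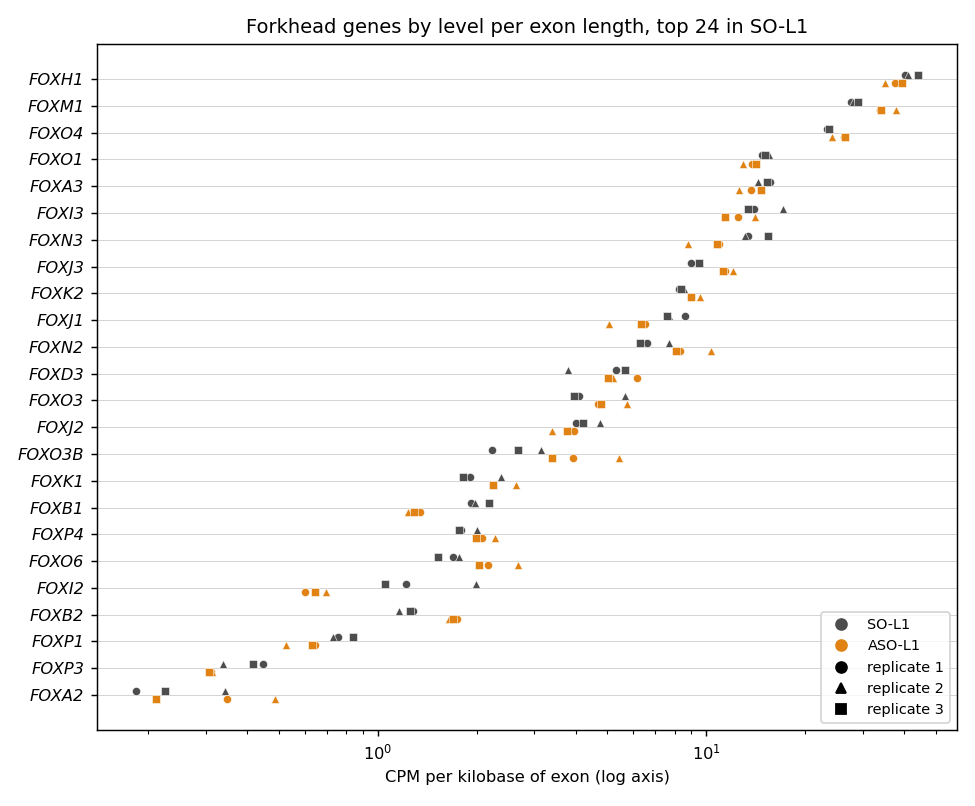
CPM per kb of exon in each library, on a log axis, for the 24 members with the highest SO-L1 level. FOXH1, FOXM1 and FOXO4 lead in both groups, and the members ranked from FOXO1 to FOXN3 overlap in SO-L1.

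Genes of the tissues that such forkhead members mark were mostly called higher where they were called. Of 12 tested mesoderm and mesenchyme genes, 3 were called higher, with a median of 0.49: PAX1, of the sclerotome (0.0731 to 0.836 CPM, 3.50 ± 0.54, adjusted p = 0.00214), TWIST1 (7.43 to 40.6 CPM, 2.47 ± 0.49, 0.0168) and the heart factor NKX2-5 (0.417 to 2.23 CPM, 2.47 ± 0.79, 0.0479). None was called lower by edgeR, limma-voom or DESeq2, and 1 was lower at an unadjusted p under 0.05 by edgeR. With the block 6 were called higher and 1 lower. Of 14 tested neural and neural crest genes, 9 were called higher, with a median of 1.95, and none lower by the same 3 tools, although 2 were lower at an unadjusted p under 0.05 by edgeR and 2 were called lower with the block. They included the eye and forebrain factor PAX6 (1.13 to 3.78 CPM, 1.74 ± 0.24, adjusted p = 0.00183), DLX5 (0.181 to 3.56 CPM, 4.29 ± 0.70, 0.00405), the crest factor SNAI2 (0.662 to 2.99 CPM, 2.19 ± 0.41, 0.00454), ZIC1 (0.121 to 1.07 CPM, 3.12 ± 0.63, 0.00508), LHX2 (0.151 to 0.711 CPM, 2.17 ± 0.47, 0.00679) and OTX1 (0.221 to 1.33 CPM, 2.54 ± 0.61, 0.0119). The mesoderm count was 5 without SO-L1 library 2 and 1 without SO-L1 library 3, with TWIST1 (adjusted p = 0.0537) and NKX2-5 (0.148) lost, and NKX2-5 was also lost without SO-L1 library 1 (0.0919) or ASO-L1 library 1 (0.0666) or 2 (0.0686). OTX1 was lost without SO-L1 library 3 (0.0514). Without ASO-L1 library 2 the log2 fold change of NKX2-5 was 1.66, that of DLX5 3.50 and that of OTX1 1.77, the last 2 still called. NKX2-5 was at 3.58 without SO-L1 library 2.

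Markers of other cells moved beside these members. Amnion markers (1 of 5 tested higher, HEY1, and 1 lower, IGFBP5) summed to 10.9 to 14.97 CPM in SO-L1 and 16.7 to 25.1 CPM in ASO-L1. The higher sum came mostly from HEY1, at 1.98 CPM in SO-L1 and 11.7 CPM in ASO-L1. In the same order, IGFBP5 was at 7.91 and 4.06 CPM. Not called were VTCN1 (0.754 and 0.386 CPM), ISL1 (0.844 and 1.41 CPM) and GABRP (1.59 and 2.25 CPM). Fibroblast and feeder markers (3 of 8 tested higher) summed to 508 to 572 CPM in SO-L1 and 572 to 633 CPM in ASO-L1, mostly from COL1A1 and COL1A2, while FAP had 0 reads and DCN 9. Trophectoderm markers (2 of 8 tested higher) summed to 112 to 115 CPM and 111 to 129 CPM, mostly from TFAP2C at 86.7 and 84.3 CPM. The 2 called were CDX2 (0.369 and 1.80 CPM, adjusted p = 0.0131) and TFAP2A (0.940 and 2.32 CPM, 0.0273). Primed markers (3 of 6 tested higher) summed to 409 to 451 CPM and 443 to 448 CPM, naive markers (2 of 10 higher, 3 lower) to 409 to 429 CPM and 395 to 419 CPM, and shared pluripotency markers (0 of 7 called by edgeR and by limma-voom, 1 lower by DESeq2, and 2 lower by edgeR at an unadjusted p under 0.05) to 4567 to 4936 CPM and 3984 to 4596 CPM. With the replicate block 4 of these 7 were called lower: POU5F1 (-0.16, adjusted p = 0.0391), NANOG (-0.29, 0.00396), LIN28A (-0.17, 0.0301) and TDGF1 (-0.23, 0.00744). Among other markers, the block called DPPA5 (-1.04, adjusted p = 3.21e-07) and VTCN1 lower, and KLF5, ZIC2, COL3A1, FBN1 and GATA3 higher. In the main test, the naive markers DPPA3, DNMT3L and SUSD2 were called lower and TFCP2L1 and KLF4 higher. The part of such cells in the forkhead increases was not tested.

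**Figure D4:**
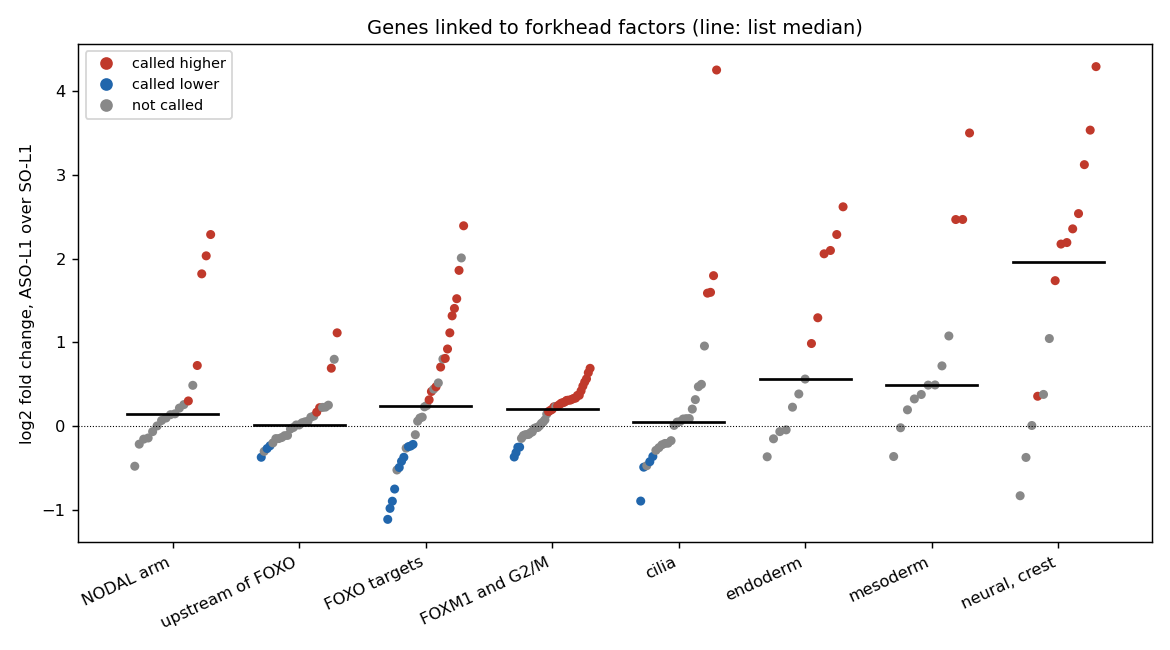
Log2 fold change (ASO-L1 over SO-L1) of each tested gene in the 8 lists linked to forkhead factors, coloured by call, with the list's median as a line. Medians lie from 0.01 to 0.24 in the signalling, FOXO, FOXM1 and cilia lists and at 0.56, 0.49 and 1.95 in the endoderm, mesoderm and neural lists.

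In the authors' deposited table, 40 members were listed, of which 10 had an adjusted p under 0.05 and a higher level (11.7% of its 20964 genes) and 5 a lower one (9.77%). It shared 9 of the 11 increases and 5 of the 5 decreases called here. FOXF2 was called only there, with a log2 fold change of 3.79 and an adjusted p of 0.0195 in the authors' deposited table. FOXQ1 and FOXO6 were not called in the authors' deposited table, with adjusted p of 0.0529 and 0.0842.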

How the data were processed

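The deposited table holds raw counts of reads per gene symbol for 6 libraries, and its title says that duplicates were removed. The submitters' processing notes name the build hg19 and the tools Subread 1.5.0, featureCounts, TopHat2 2.0.13 and Trim Galore 0.4.0. Not given in the sources used here: the annotation, the use of strand, the treatment of multi-mapping reads and the rule for duplicates. Per the labels' protocols, libraries were made with a directional kit from 200 ng RNA. Per the file headers, the authors' table of their own comparison lists for each gene its log2 change and mean log2 level, 2 test statistics (scores t and B) and the raw and adjusted p-value. It was used only where named. A table of batch-corrected log2 values was not used.

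Genes were kept by filterByExpr (minimum count 10, minimum total 15) of edgeR 4.0.16 in R 4.3.3, so that 16873 of 53712 genes were tested (20275 were without any read). The test was the robust quasi-likelihood test with TMM factors, two-sided, with Benjamini-Hochberg adjustment over all tested genes and calls at an adjusted p under 0.05. The SE was taken as the ratio of the log2 fold change, without shrinkage, to the root of the F statistic, and intervals are 95%. For single genes no exact permutation p is given, since 0.1 is the smallest two-sided value that groups of 3 allow. Named were all called members, tested members whose average log2 CPM reached 2, other members by mean or reads, and up to 4 called genes per linked list with the smallest p (up to 6 where they changed at least 2-fold). Of these, 1 member and 1 list gene are counted but not reported here. IRF4, IRF8, the other cluster neighbours, SMAD7, and list genes named in passing were chosen after their values were seen. Members and lists were chosen with earlier results of these data known. Alternatives were DESeq2 1.42.0, limma-voom 3.58.1, RLE factors, other filters, leaving out libraries, and a replicate block. The titles number replicates 1 to 3 in both groups. Deviations from the group means correlated at 0.102, 0.377 and 0.211 for numbers 1 to 3, all over 0.1. However, SO-L1 replicate 3 with ASO-L1 replicate 1 (0.162) and SO-L1 replicate 1 with ASO-L1 replicate 3 (0.156) were above the first. The numbers were therefore used as pairs only in the replicate block. The main test, which gave the calls, did not use the pairing. Promoters are from RefSeq (GRCh38.p14), with the first start where a gene has several, and exon lengths from GENCODE 29.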

Additional observations from a re-analysis of the deposited data

How the results depend on the processing

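Under 15 alternatives, 12 of the 32 tested members kept their direction and their side of the threshold, and 4 of the called ones (FOXC1, FOXC2 and FOXD2 among them) kept their call wherever they were tested. Members called higher numbered 11, and 7 with a filter of CPM above 1 in 3 libraries, which tested 24 members. Without single libraries, or a replicate number of both groups, members called higher ran from 4 to 14, members called lower from 0 to 7, and called genes of the linked lists from 28 to 105, against 84 (43 and 81 without SO-L1 replicates 3 and 2, 42 without replicate 3 of both groups). ASO-L1 replicate 2 and SO-L1 replicates 1 and 3 mattered most, with 7, 6 and 6 members called higher without them, and 14 were called without SO-L1 replicate 2. Without SO-L1 replicate 1 the count called lower was 3. Without replicate 1 of both groups the same 4 members were called higher and 0 lower by edgeR (6 lower at an unadjusted p under 0.05, and no other tool was run there), with 2 libraries a group. Without replicate 2 of both groups the counts were 13 and 7, and without replicate 3 they were 6 and 2. The replicate block gave 12 and 7, and 112 linked genes. Beside FOXH1, FOXI3, FOXK1, C3orf72 and the cell type markers named with it, the block changed no call of a member. It ended no call of a named list gene or neighbour, where DUSP22 was not followed. Signs turned in uncalled members only: FOXD3 was at -0.016 without SO-L1 replicate 2, 0.25 without SO-L1 replicate 3, and 0.31 with number 3 of both groups left out, and FOXE1 ranged from -0.22 to 0.18, with 0.10 without ASO-L1 replicate 3, 0.18 without SO-L1 replicate 2, and 0.046 and 0.052 without replicates 2 and 3 of both groups. The cause was not tested.

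With no filter on low counts FOXF2 (adjusted p = 2.60e-08), FOXF1 (1.82e-06) and FOXD4 (0.0102) were also called higher by edgeR, and FOXO6, CXCR4 (0.0857), NKX2-5 (0.0988), TWIST1 (0.0591) and PDPK1 (0.0734) were not called. Gains without 1 library were FOXI3 (0.0376, ASO-L1 replicate 2), FOXK1 (0.0355, SO-L1 replicate 2), FOXO3 (0.0466, SO-L1 replicate 2) and FOXP2 (0.0376, ASO-L1 replicate 1). Depth limits the 14 untested members, where 3 to 55 reads in all libraries cannot show small differences.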
